A study of Mus musculus with 6 samples.

Results

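The genes described here are those of the matrix metalloproteinases (MMP), the ADAM and ADAMTS proteases, their TIMP inhibitors and the plasminogen activation system in partially reprogrammed mouse melanoma cells. Members were all genes with a symbol of Mmp, Adam, Adamts or Timp followed by a digit, together with Plau, Plat, Plaur, Reck and St14, taken from probe sets annotated to exactly 1 gene. This gave 70 of 18193 genes, measured by 123 of 45101 probe sets, and the rule uses symbols only. They were 18 MMP, 28 ADAM and 15 ADAMTS genes, 5 inhibitor genes and 4 genes of plasminogen activation.

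The cells were 4434, a murine melanoma line with mutated Braf. Every sample had received both lentiviral vectors, an inducible polycistronic vector for Oct4, Sox2, Klf4 and blasticidin resistance, and a vector for the doxycycline-dependent transactivator with mCherry. Expression of the factors was induced with doxycycline in + dox cells, and − dox cells held both vectors in medium without it. Total RNA of day 20 was hybridised to 6 Affymetrix mouse arrays, 3 from + dox and 3 from − dox cells. Blasticidin selection is described for the doxycycline-treated cells, so doxycycline, selection and the factors cannot be told apart. It is not stated that replicate arrays stem from independent cultures. The p-values here therefore reflect sample-to-sample spread alone, and part of it may be technical.

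MMPs cleave collagens, gelatin and other matrix proteins, ADAMs release the outer part of membrane proteins, and ADAMTS proteases act mainly on proteoglycans and procollagens. Urokinase, bound to its receptor on the cell surface, turns plasminogen into plasmin, which degrades fibrin and can activate some pro-MMPs. TIMPs block MMPs and some ADAMs and ADAMTS proteases, so the balance of protease and inhibitor sets the proteolytic activity around an invading melanoma cell. Transcript levels do not measure that activity.

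Values are log2 expression values after RMA, a normalisation that gives 1 value per probe set, and each gene is represented by its brightest probe set. A difference of 1 on this scale is a doubling. Array medians lay between 5.33 and 5.37. The first principal component over all genes held 63.2% of the variance, with scores of 10.5, 41.9 and 54.4 for + dox and −39.6, −30.7 and −36.4 for − dox, so + dox 1 lay nearest to the − dox side. The next component (20.0%) set − dox 1 apart, at −40.7 against 19.1 and 19.3. Of 7 melanocytic markers 0 were called. The means of Mlana, Tyr and Tyrp1 were below the lower quartile over all probe sets (3.84 to 3.90 by array) in both groups. Those of Dct, Pmel, Mitf and Sox10 lay above it. Of 7 leukocyte markers, 1 (Ptprc) was under that quartile in all 6 arrays. Mean marker levels by array were 4.88 to 5.33 in + dox and 4.62 to 4.83 in − dox cells for 7 leukocyte genes, and 4.67 to 4.85 in + dox and 4.72 to 4.92 in − dox cells for the melanocytic genes. They were 4.74 to 4.82 in + dox and 4.52 to 4.72 in − dox cells for 6 fibroblast genes, and 4.84 to 5.35 in + dox and 4.29 to 4.56 in − dox cells for 4 endothelial genes. For 6 keratinocyte genes they were 5.56 to 5.71 in + dox and 4.85 to 5.04 in − dox cells, and of all these markers Krt14 was called and no other marker was. The differences in these means came mostly from single genes, with changes of 3.67 for Krt14, 1.61 for Tek, 1.24 for Cd68 and 1.17 for Itgam. The fibroblast marker Dcn changed by 0.85 without overlap and was just outside the threshold (limma adjusted p = 0.0525). Mitf changed by −0.76, with overlap (limma adjusted p = 0.34). The median change was 0.03 for the keratinocyte, 0.26 for the endothelial and 0.13 for the leukocyte list. It was 0.03 for the fibroblast and 0.04 for the melanocytic list. Their part in the changes below was not tested.

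Inhibitors and proteases differed in direction among the genes that passed the test. With limma and an adjusted p under 0.05 over all genes, 3 members were higher in + dox than in − dox cells (Timp1, Timp3 and Plaur) and 3 were lower (Mmp9, Mmp2 and Adam19). This was 4.29% of the members in each direction, against 3.07% of all genes higher and 1.8% lower. With so few calls, their number alone is no result about these genes. Before adjustment, 4 members were higher and 12 lower at p under 0.05, which is 5.71% and 17.1% of them, against 11.1% and 10.6% of all genes. Every + dox array lay above every − dox array for 7 of the 70 members and below for 14 of them, against 14.3% and 12.6% of all genes. The median change of the 70 genes was within 0.01 of 0 and that of all genes 0.01, and 21 members lay under the lower quartile in both groups. RNA came from whole cultures, so fewer cells of a type and less RNA per cell cannot be told apart.

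**Figure D1:**
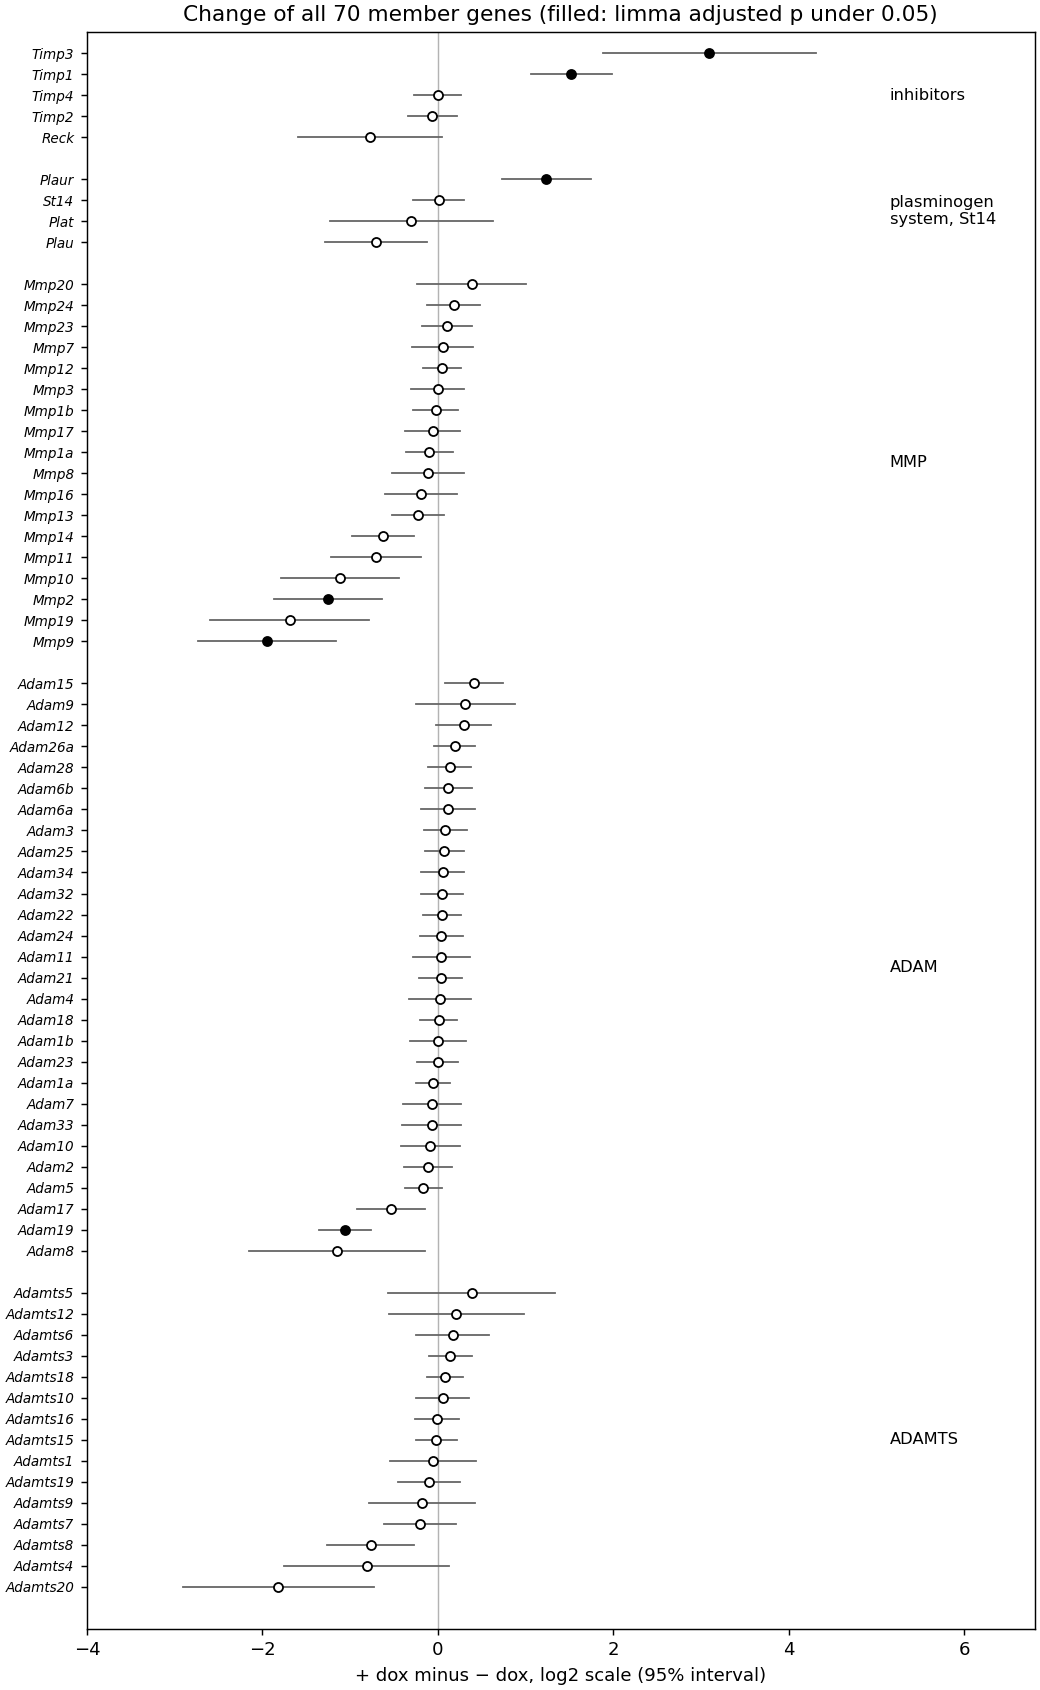
Change of all 70 member genes, + dox minus − dox on the log2 scale (horizontal axis), by gene and role (vertical axis), with bars for the 95% interval of the limma fit. Filled points have an adjusted p under 0.05, and most genes lie near 0, with Timp3 at 3.09 at the right end and Mmp9 at −1.95 at the left end.

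Timp1, which encodes a secreted inhibitor of most MMPs and of ADAM10, was measured by a single probe set. Its levels were 12.32, 12.86 and 12.95 in + dox and 10.98, 11.34 and 11.25 in − dox arrays. Array 1 was the lowest of its group on both sides, and the groups were separated by more than the spread within either. The means were 12.71 ± 0.34 in + dox and 11.19 ± 0.19 in − dox cells (SD, n = 3 each), and the change was 1.52 with SE 0.19, or 2.87-fold (limma adjusted p = 0.0145).

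Timp3 codes for the inhibitor that binds to the matrix and also blocks ADAM17. It stood at 8.94, 6.84 and 8.01 in + dox arrays, against 5.22, 4.78 and 4.51 in − dox arrays. The + dox arrays spread over a wide range, with + dox 1 highest and + dox 2 lowest, and all lay above the − dox arrays. The means were 7.93 ± 1.05 in + dox and 4.84 ± 0.36 in − dox cells, so that the level was 3.09 higher (SE 0.51), or 8.54-fold (limma adjusted p = 0.0271). It had 4 probe sets, with changes of 1.79 to 3.48, of which 3 passed the test over all probe sets.

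The other inhibitors did not pass. Timp2, whose product inhibits MMP2 and also takes part in its activation with MMP14, had 12.19, 12.53 and 12.32 in + dox and 12.34, 12.44 and 12.45 in − dox arrays by its brightest probe set. The groups overlapped, with a change of −0.06 (95% interval −0.34 to 0.21). Its 6 probe sets all had negative changes, of −0.60 to −0.06. In 4 of them the groups did not overlap, yet 0 passed (limma adjusted p from 0.0604 to 0.171 in these 4). Timp4, a TIMP of restricted tissue expression, had 4.74, 4.66 and 4.48 in + dox and 4.60, 4.75 and 4.54 in − dox arrays. Reck, which encodes a membrane-anchored inhibitor of MMPs, had 6.46, 7.24 and 6.61 in + dox and 8.25, 7.14 and 7.24 in − dox arrays, a change of −0.77 (95% interval −1.60 to 0.05, limma adjusted p = 0.260). Array − dox 1 was the high one, and + dox 2 reached the level of the other − dox arrays. Among the 5 inhibitors the change ranged between −0.77 and 3.09, with 2 genes higher and 0 lower. The shares of all genes were 3.07% higher and 1.8% lower.

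Of the 4 genes of plasminogen activation, 1 passed, against 4.87% of all genes in either direction. Plaur, which encodes the urokinase receptor, had 11.15, 11.70 and 11.72 in + dox and 10.23, 10.60 and 10.03 in − dox arrays. All + dox arrays lay above all − dox arrays, with + dox 1 the lowest of its group. It averaged 11.52 ± 0.32 in + dox and 10.29 ± 0.29 in − dox cells, which is 1.24 higher (SE 0.21), or 2.36-fold (limma adjusted p = 0.0300). Plau, the gene of urokinase itself, had 5.02, 5.74 and 5.31 in + dox and 5.77, 6.46 and 5.96 in − dox arrays. These groups met without overlapping, and the change was −0.71 (95% interval −1.29 to −0.12, limma adjusted p = 0.155). In its other probe set the groups overlapped, with a change of −0.43.

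Plat, which codes for the tissue-type activator, had 9.03, 10.67 and 10.07 in + dox and 10.39, 10.11 and 10.18 in − dox arrays. The + dox arrays lay on either side of the − dox ones, and the change of −0.30 had an interval of −1.23 to 0.63. St14, the gene of the membrane serine protease matriptase, had 4.82, 4.99 and 4.98 in + dox and 4.77, 5.11 and 4.88 in − dox arrays, with a change of 0.01 (95% interval −0.28 to 0.30).

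**Figure D2:**
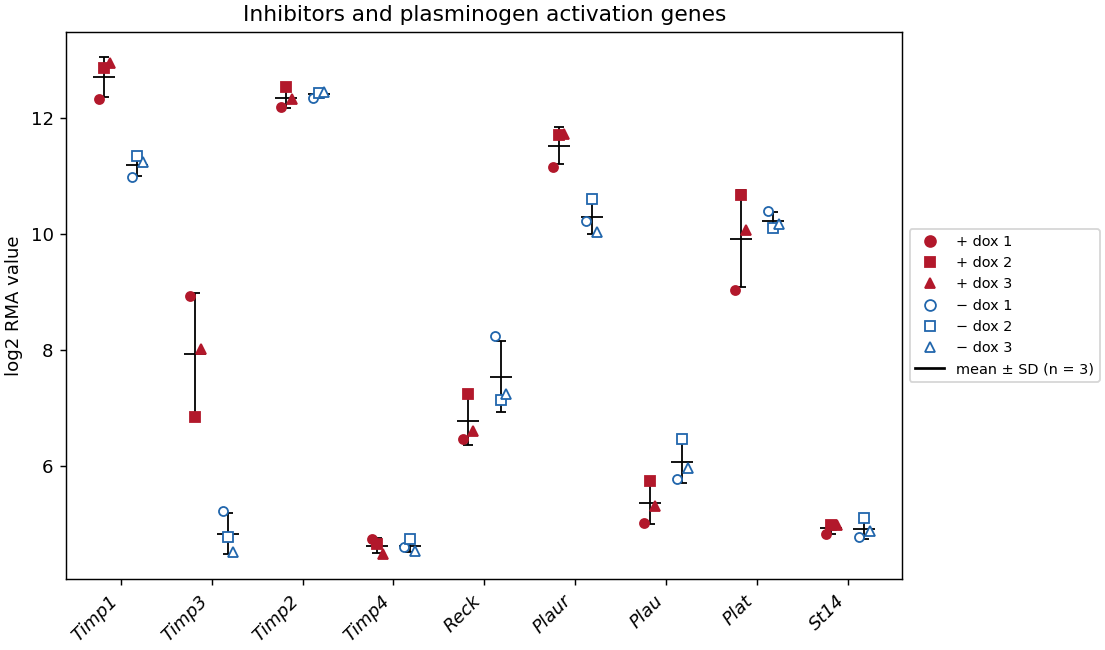
Log2 RMA value (vertical axis) of the 5 inhibitor genes and 4 genes of plasminogen activation (horizontal axis) by array, with + dox arrays in filled red to the left of − dox arrays in open blue, and black bars for the mean ± SD of 3 arrays. Timp1, Timp3 and Plaur show no overlap, with + dox arrays above, while Timp2, Timp4, Plat and St14 overlap.

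The gelatinases were lower in + dox cells. Mmp9, which encodes gelatinase B, a protease of denatured collagen and basement membrane collagen, had 7.97, 7.86 and 6.73 in + dox and 9.54, 9.27 and 9.60 in − dox arrays. The − dox arrays lay close together, and + dox 3 was the lowest. The means were 7.52 ± 0.69 in + dox and 9.47 ± 0.18 in − dox cells, and the level fell by 1.95 on the log2 scale (SE 0.33, 3.86-fold lower, limma adjusted p = 0.0291). Its other probe set had a change of −1.99 and was also called. Mmp2, the gene of gelatinase A, had 8.10, 7.47 and 7.45 in + dox and 9.36, 8.59 and 8.84 in − dox arrays. Array 1 was highest in both groups, and the groups did not overlap. Mmp2 averaged 7.67 ± 0.37 in + dox and 8.93 ± 0.39 in − dox cells, with a change of −1.26 (SE 0.26, 2.39-fold lower, limma adjusted p = 0.0469). Tested over all probe sets, both probe sets of Mmp2 missed the threshold (limma adjusted p = 0.0631 and 0.0646).

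The 4 collagenase genes listed with them had low values. Mmp13, Mmp1a and Mmp1b were under the lower quartile in both groups, at group means of 2.64 to 3.09, and Mmp8 lay at 3.97 in + dox and 4.08 in − dox cells. All 6 genes of the list had negative changes, from −1.95 for Mmp9 to −0.02 for Mmp1b, and those that passed were the gelatinases.

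Of the other 12 MMP genes 0 were called by limma, and 4 of them had an unadjusted p under 0.05, all with lower levels in + dox cells. Mmp19, which encodes a protease of basement membrane proteins, had 4.19, 3.82 and 3.64 in + dox and 6.36, 5.54 and 4.82 in − dox arrays (−1.69, limma adjusted p = 0.0575). Mmp10, the gene of stromelysin 2, had 4.50, 4.70 and 5.07 in + dox and 5.41, 6.44 and 5.78 in − dox arrays (−1.12, adjusted p = 0.0771 by limma). Mmp11, a stromelysin by name, had 6.58, 6.63 and 6.38 in + dox and 7.70, 6.89 and 7.12 in − dox arrays (−0.71, limma adjusted p = 0.119). In each the groups did not overlap. The other probe set of Mmp19 had a smaller change of −0.72 (limma adjusted p = 0.257 over all probe sets). The membrane-type gene Mmp14, whose product activates pro-MMP2 at the cell surface, had 9.40, 8.94 and 9.08 in + dox and 9.61, 9.84 and 9.85 in − dox arrays. Its 3 probe sets had changes of −0.63 to −0.52, with a limma adjusted p of 0.0643 for the brightest. The other membrane-type genes had smaller changes, of 0.18 for Mmp24, −0.20 for Mmp16 and −0.06 for Mmp17. Mmp7 and Mmp12 had changes of 0.05 each, and Mmp20, the enamel protease gene, one of 0.38 at a level under the lower quartile in both groups, which was 0.08 without + dox 3. Over the 18 MMP genes 0 were higher and 2 lower, with a median change of −0.11. The 2 are 11.1% of the MMP genes, against 1.8% of all genes called lower. An unadjusted p under 0.05 with a lower level was found for 33.3% of the MMP genes, against 10.6% of all genes.

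The MMP genes were also set out by genomic position. Mouse chromosome 9 carries a cluster of stromelysin, collagenase and related genes, and 9 of the 18 measured MMP genes lie on that chromosome. Of these, limma called 0, 1 had an unadjusted p under 0.05 (Mmp10), 5 were under the lower quartile in both groups, and the median change was −0.02. Of the 9 MMP genes on other chromosomes, 2 were lower, 5 had an unadjusted p under 0.05, 0 were under the quartile, and the median change was −0.63. Among all genes, 1.8% were called lower, and 10.6% had an unadjusted p under 0.05 with a lower level. The low levels of the cluster limit what these arrays could measure there. The difference between these sets of genes was not tested.

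The AP-1 motif is bound by Fos and Jun family factors and is a known element of collagenase and stromelysin promoters. It was searched as TGANTCA, where N is any base, a pattern that reads alike on both strands. The windows ran from 250 bases before to 50 after each RefSeq gene start in GRCm38.p6. They were found for 39 of the 70 members, and 12 of their 44 windows held the motif (27.3%), against 2565 of 32851 windows of all genes (7.81%). Among MMP genes of chromosome 9 the motif stood in 8 of 11 windows (72.7%), and in the windows of the other members in 4 of 33 (12.1%). A match is a description of these letters only. The 8 cluster genes are shown because most of the members' windows with the motif are theirs, each on its gene's strand with the motif in capitals and 15 bases on each side.
Mmp1a, chr9:7464053-7464089, + strand: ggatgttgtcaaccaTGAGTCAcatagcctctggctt
Mmp1b, chr9:7388098-7388134, - strand: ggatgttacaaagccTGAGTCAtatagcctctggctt
Mmp3, chr9:7445761-7445797, + strand: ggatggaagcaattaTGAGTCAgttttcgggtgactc
Mmp7, chr9:7692012-7692048, + strand: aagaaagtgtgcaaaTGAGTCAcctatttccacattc
Mmp10, chr9:7502264-7502300, + strand: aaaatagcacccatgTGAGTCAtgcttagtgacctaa
Mmp12, chr9:7347315-7347351, + strand: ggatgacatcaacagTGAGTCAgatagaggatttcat
Mmp13, chr9:7272464-7272500, + strand: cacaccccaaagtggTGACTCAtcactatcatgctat
Mmp20, chr9:7628121-7628157, + strand: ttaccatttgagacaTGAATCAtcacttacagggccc

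In these 8 genes the motif began between 35 bases (Mmp13) and 95 bases (Mmp20) before the gene start. The base at N was A in Mmp20 and G or C in the others. Among them Mmp10 had no overlap between the groups of arrays. The levels of Mmp1a, Mmp1b, Mmp12, Mmp13 and Mmp20 were under the lower quartile in + dox and − dox cells alike.

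**Figure D3:**
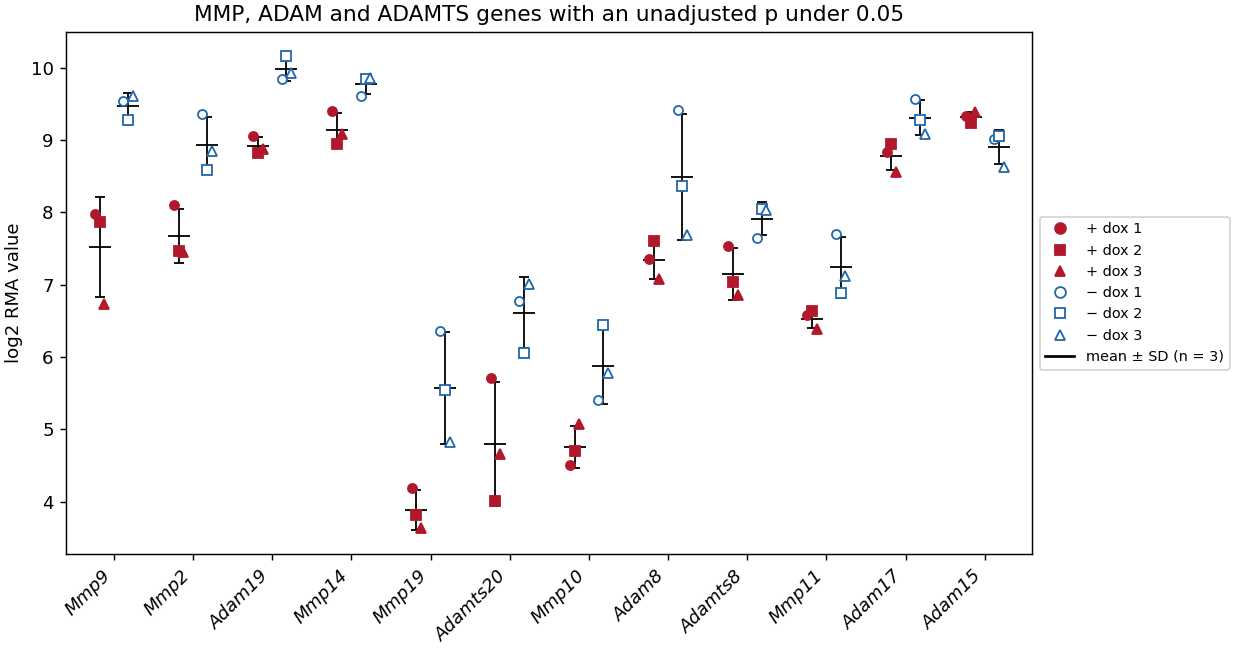
Log2 RMA value (vertical axis) of the 12 MMP, ADAM and ADAMTS genes with an unadjusted p under 0.05 (horizontal axis) by array, with + dox arrays in filled red to the left of − dox arrays in open blue, and black bars for the mean ± SD of 3 arrays. The + dox arrays lie below the − dox arrays in each gene but Adam15, where they lie above.

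Among ADAM genes, Adam19 was called. It encodes meltrin beta, a membrane protease that can release neuregulin. Its levels were 9.06, 8.82 and 8.87 in + dox and 9.84, 10.16 and 9.93 in − dox arrays. Both groups were tight and lay well apart. The means were 8.92 ± 0.13 in + dox and 9.98 ± 0.17 in − dox cells, and the level fell by 1.06 on the log2 scale (SE 0.12, 2.09-fold lower, limma adjusted p = 0.011). The other probe set, which is dimmer, had a change of −0.81 and was not called (limma adjusted p = 0.0994).

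No other sheddase gene passed. Adam17, the gene of the main TNF alpha sheddase, had 8.83, 8.94 and 8.56 in + dox and 9.56, 9.28 and 9.08 in − dox arrays (−0.53, limma adjusted p = 0.121). Adam8, a sheddase gene of leukocytes and some tumours, had 7.35, 7.60 and 7.08 in + dox and 9.42, 8.36 and 7.69 in − dox arrays (−1.15, adjusted p = 0.176 by limma). In both the groups did not overlap, and for Adam8 the − dox arrays spread widely with − dox 1 highest. The 2 other probe sets of Adam17 had changes of −0.44 and −0.38, with overlap. Adam15, which encodes a disintegrin with an RGD motif in humans, had 9.33, 9.23 and 9.38 in + dox and 9.01, 9.06 and 8.63 in − dox arrays. Its 4 probe sets had changes of 0.31 to 0.41, and the brightest had a limma adjusted p of 0.144. Adam10, the alpha-secretase gene and a sheddase of Notch receptors, had changes of −0.09 to −0.02 in 4 probe sets. Adam9, another membrane sheddase gene, had 11.65, 11.94 and 11.57 in + dox and 11.91, 11.26 and 11.05 in − dox arrays, where − dox 1 lay within the + dox range. Of 9 sheddase genes 0 were higher and 1 was lower, with a median change of −0.07. The share called lower was 3.57% of the 28 ADAM genes, against 1.8% of all genes.

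The other 19 ADAM genes, many of them known from testis and sperm, showed little signal and little change. Of these, 12 were under the lower quartile in both groups, 0 passed the limma test and 0 had an unadjusted p under 0.05, with changes from −0.17 (Adam5) to 0.19 (Adam26a). Among 15 ADAMTS genes 0 passed and 2 had an unadjusted p under 0.05, both with lower levels (13.3%, against 10.6% of all genes). Adamts20, a protease gene needed for melanoblast survival and coat colour in mice, had 5.71, 4.01 and 4.66 in + dox and 6.77, 6.06 and 7.01 in − dox arrays (−1.82, limma adjusted p = 0.0757). Adamts8, whose product has antiangiogenic activity, had 7.54, 7.04 and 6.85 in + dox and 7.65, 8.05 and 8.03 in − dox arrays (−0.77, adjusted p = 0.0906 by limma). In both genes + dox 1 was the highest of its group and the groups did not overlap. The aggrecanase genes Adamts4 and Adamts5 had changes of −0.81 and 0.38, with overlap between groups. In the other probe set of Adamts4, with 6.72, 6.25 and 6.33 in + dox and 7.13, 7.36 and 7.97 in − dox arrays, the groups did not overlap (−1.05, limma adjusted p = 0.0797). Adamts3, the measured gene of the procollagen-processing list, had a change of 0.14, and Adamts6 and Adamts7 had changes of 0.17 and −0.20.

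**Figure D4:**
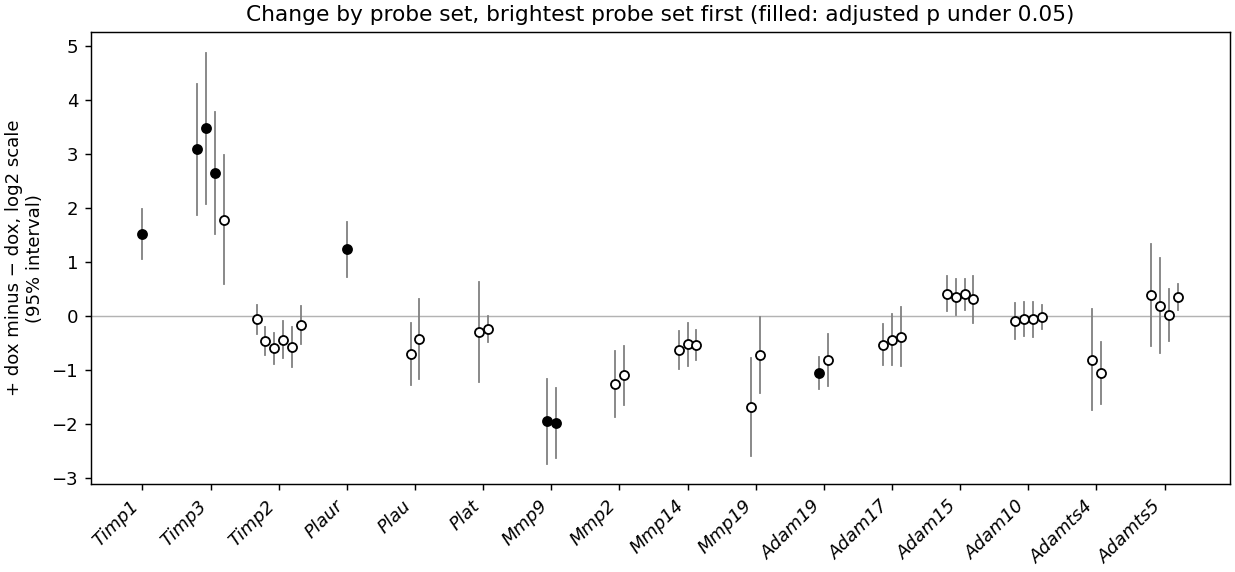
Change by probe set, + dox minus − dox on the log2 scale (vertical axis), for 1 or more probe sets of selected member genes (horizontal axis), brightest first, with bars for the 95% interval of the limma fit and filled points for an adjusted p under 0.05 over all probe sets. All 4 probe sets of Timp3 lie above 0, and all 6 of Timp2 below.

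Tested by probe set, 5 of the 123 were higher and 3 lower, against 1.64% and 0.884% of all probe sets. The 5 were 3 of Timp3 and those of Timp1 and Plaur, and the 3 were 2 of Mmp9 and 1 of Adam19. Among the members, 38 genes had 1 probe set and 32 had several. At the threshold itself, Plaur (limma adjusted p = 0.0300) and Mmp2 (0.0469) were the last genes inside, and Mmp19 (0.0575) and Mmp14 (0.0643) the first outside.

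RefSeq gave promoter windows for 4 of the 6 called members, and none for Mmp2 and Mmp9. The windows are shown here because these genes carry the comparison, with the AP-1 motif in capitals. Plaur held it 69 bases before its start, and Adam19 held it in 1 of its 3 windows, 131 bases before the start. The windows of Timp1 and Timp3 had no match to TGANTCA, and sites that differ from this pattern were not searched.
Timp1, chrX:20869916-20870215, + strand: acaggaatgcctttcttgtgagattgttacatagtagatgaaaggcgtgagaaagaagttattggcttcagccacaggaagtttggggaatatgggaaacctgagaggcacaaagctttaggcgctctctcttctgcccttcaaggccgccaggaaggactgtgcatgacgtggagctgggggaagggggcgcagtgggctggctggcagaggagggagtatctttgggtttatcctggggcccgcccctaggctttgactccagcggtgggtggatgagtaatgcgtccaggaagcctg
Timp3, chr10:86300162-86300461, + strand: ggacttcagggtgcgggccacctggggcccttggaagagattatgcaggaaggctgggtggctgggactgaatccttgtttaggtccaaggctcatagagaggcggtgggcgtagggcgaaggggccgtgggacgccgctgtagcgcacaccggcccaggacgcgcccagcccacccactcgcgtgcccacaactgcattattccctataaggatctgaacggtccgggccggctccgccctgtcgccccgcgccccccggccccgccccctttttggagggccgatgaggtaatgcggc
Plaur, chr7:24462233-24462532, + strand: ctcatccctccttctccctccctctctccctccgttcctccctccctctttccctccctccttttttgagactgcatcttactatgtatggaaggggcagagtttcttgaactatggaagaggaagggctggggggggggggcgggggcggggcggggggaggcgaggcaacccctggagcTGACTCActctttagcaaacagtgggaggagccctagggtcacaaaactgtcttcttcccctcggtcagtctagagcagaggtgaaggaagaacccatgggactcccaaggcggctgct
Adam19, chr11:46055734-46056033, + strand: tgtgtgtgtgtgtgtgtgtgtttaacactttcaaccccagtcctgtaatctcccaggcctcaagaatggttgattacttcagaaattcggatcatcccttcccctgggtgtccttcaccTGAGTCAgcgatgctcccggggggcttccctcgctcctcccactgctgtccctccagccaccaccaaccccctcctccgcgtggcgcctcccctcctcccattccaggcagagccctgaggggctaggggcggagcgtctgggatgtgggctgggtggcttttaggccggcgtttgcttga

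Of the 2 called members with the motif, Plaur was higher and Adam19 lower in + dox cells. Whether the motif goes with a change was not tested.

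Proteases were then set against their inhibitors within each array, for 6 pairs, by the log2 value of the protease minus that of the inhibitor. Levels of different probe sets are not comparable, so values are given relative to the − dox mean of the pair. The exact permutation test over 6 arrays is two-sided and cannot go below p = 0.10. For Mmp9 with Timp1, the values were −2.63, −3.28 and −4.50 in + dox and 0.28, −0.35 and 0.07 in − dox arrays. The difference of the changes was −3.47 (SE 0.58), an 11.1-fold shift toward the inhibitor, with exact permutation p = 0.10. For Adam17 with Timp3, the values were −4.58, −2.37 and −3.92 in + dox and −0.13, 0.03 and 0.10 in − dox arrays, with a difference of −3.62 (SE 0.66, 12.3-fold). Of that shift, −0.53 was the change of Adam17 and 3.09 that of Timp3.

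Adam10 with Timp1 had −1.46, −1.56 and −1.81 in + dox and 0.35, −0.23 and −0.13 in − dox arrays, a difference of −1.61 (SE 0.21, 3.05-fold). Mmp2 with Timp2 differed by −1.19 (SE 0.39, 2.29-fold) and Mmp14 with Timp2 by −0.56 (SE 0.24, 1.48-fold). In these 5 pairs every + dox array lay below every − dox array, and each had the smallest exact permutation p that 3 against 3 arrays allow (0.10, adjusted over 6 pairs 0.12). The pairs with Timp2 rested on its brightest probe set. With the mean of all probe sets the difference was −0.79 for Mmp2 and −0.18 for Mmp14, and by the most variable probe set it was −0.68 for Mmp2 and −0.05 for Mmp14. The + dox and − dox arrays of these pairs then overlapped (exact permutation p = 0.20 for Mmp2 under both choices, and 0.40 and 1.0 for Mmp14). The 3 other pairs stayed without overlap under both choices. For Mmp9 with Timp1 and Adam10 with Timp1 the most variable probe sets were those already used, so that choice only repeated the same values. For Mmp14 with Timp2 the gap was small, with + dox 1 at −0.15 and − dox 1 at −0.09. Mmp9 with Reck had −0.42, −1.31 and −1.81 in + dox and −0.64, 0.20 and 0.43 in − dox arrays, which overlapped (difference −1.18, SE 0.52, exact permutation p = 0.20). The pairs share genes and are not independent of each other or of the tests above. For Mmp9 with Timp1 and Adam17 with Timp3 the separation and the exact permutation p of 0.10 were fixed by the single genes. In both, the protease arrays and the inhibitor arrays separated without overlap, in opposite directions. In the shift of Adam10 with Timp1, −0.09 was the change of Adam10 and 1.52 that of Timp1.

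**Figure D5:**
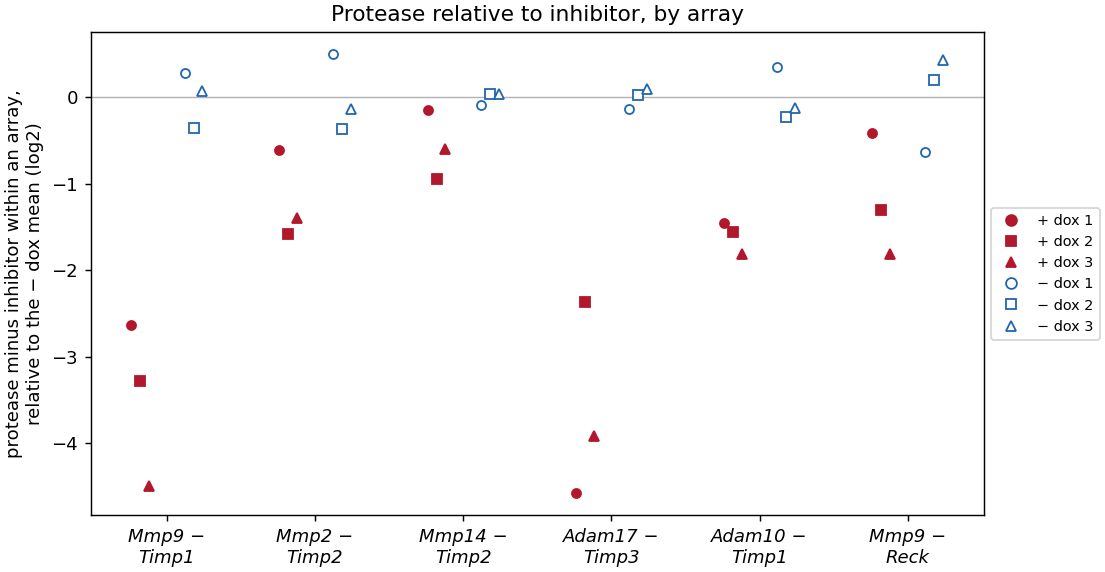
Protease minus inhibitor within an array, relative to the − dox mean on the log2 scale (vertical axis), for 6 pairs (horizontal axis), with + dox arrays in filled red to the left of − dox arrays in open blue. The + dox arrays differ on average by −3.47 for Mmp9 with Timp1 and by −3.62 for Adam17 with Timp3, and overlap with − dox arrays for Mmp9 with Reck.

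Of 41 listed genes that neighbour these in the pathway and are no members, 39 were measured, 3 were higher and 0 lower, with a median change of 0.13. Of all genes, 3.07% were called higher and 1.8% lower. Anxa2 and S100a10, whose products form a cell surface complex that binds plasminogen and its tissue-type activator, were both higher. Anxa2 had 13.80, 14.07 and 14.07 in + dox and 13.02, 13.31 and 13.22 in − dox arrays (0.80, limma adjusted p = 0.0251). S100a10 had 12.98, 12.94 and 13.16 in + dox and 11.35, 12.06 and 12.16 in − dox arrays (1.17, adjusted p = 0.0389 by limma). Adamtsl5, an ADAMTS-like gene without a protease domain, had 6.34, 6.11 and 6.42 in + dox and 5.72, 5.40 and 5.49 in − dox arrays (0.75, limma adjusted p = 0.0318). Their groups did not overlap, but each of these calls was lost without + dox 2, + dox 3, − dox 2 or − dox 3, and that of S100a10 also without + dox 1. The highest limma adjusted p was then 0.107 for Anxa2, 0.149 for S100a10 and 0.132 for Adamtsl5.

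Some genes of that list missed the threshold and are named after their values were seen. Serpinb2, which encodes an inhibitor of urokinase, had 6.97, 8.46 and 8.31 in + dox and 4.85, 6.60 and 5.50 in − dox arrays (2.26, limma adjusted p = 0.0706). The heparanase gene Hpse had a change of 1.29 (adjusted p = 0.0570 by limma). Ctsb, the gene of the lysosomal protease cathepsin B, had a change of −1.15 (limma adjusted p = 0.0516), and Bmp1, the procollagen C-proteinase gene, one of −0.97 (0.0503). Both lay at the threshold and were called lower under several other settings. An example is the probe set of largest variance (limma adjusted p = 0.0207 for Ctsb and 0.0247 for Bmp1), a choice that takes in the group difference itself. When each of the 6 arrays was left out in turn, Ctsb was called in 2 cases and Bmp1 in 1. The limma adjusted p then reached 0.182 for both. With the replicate number as a block it was 0.0405 for Ctsb and 0.102 for Bmp1.

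Single arrays decided which members were called. All 6 called members had groups without overlap, so leaving out arrays could not change their sign. Without + dox 1, 3 members were higher and 6 lower, Adamts20, Adamts8 and Mmp14 joining. Without − dox 1, 3 were higher and 4 lower, with Mmp10 and Mmp19 called and Mmp2 just outside (limma adjusted p = 0.0505). Calls over all genes also rose, to 1650 without + dox 1 and 1140 without − dox 1, from 886. Without + dox 2, Timp3 was the 1 member called, and without + dox 3 it was Mmp9, with 170 and 157 of all genes called. Without − dox 2 or − dox 3, limma called 0 members, and over all genes 121 and 119 in place of 886. The highest limma adjusted p on leaving out an array was 0.0621 for Adam19, 0.0736 for Timp1, 0.116 for Timp3, 0.123 for Mmp9, 0.124 for Plaur and 0.171 for Mmp2.

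Without both arrays numbered 1, which leaves 2 per group, 5 members were higher and 9 lower, against 10.3% and 9.79% of all genes. The higher ones were Timp1 (1.61), Timp3 (2.78), Plaur (1.40), Adam9 (0.60) and Adamts12 (0.72). The lower ones were Mmp9 (−2.14), Mmp2 (−1.26), Mmp14 (−0.84), Mmp10 (−1.23), Mmp19 (−1.45), Adam19 (−1.20), Adamts4 (−1.48), Adamts8 (−1.10) and Adamts20 (−2.20). With these arrays the same inhibitors and the urokinase receptor were called higher and both gelatinases lower. Their directions were fixed by the lack of overlap.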

How the data were processed

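The deposited table holds log2 expression values of single arrays, which the authors made with RMA in Chipster (background correction, quantile normalisation, then a summary for each probe set). The version of Chipster and its chip definition are not given in the sources used here, and the log2 scale was read from the values and the use of RMA. Background correction in RMA compresses the changes of dim probe sets. Of 45101 probe sets, 34945 had 1 gene symbol in the platform annotation of 2016, 932 had several, and 64 array controls were left out. Names were updated with the RefSeq table of GRCm38.p6, which changed 0 symbols. Precision is limited by the number of arrays.

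Arrays were grouped by their labels. For each of 18193 genes the probe set of highest mean over 6 arrays was used, also when an array was left out. The test was limma 3.58.1 (R 4.3.3), fitted by lmFit and eBayes with group as its term, two-sided. Adjustment was Benjamini-Hochberg over all genes, at a threshold of 0.05. A change is + dox minus − dox with its fitted SE, and intervals are 95%. The script was tested on simulated data. Named with values were Mmp2, Mmp9 and Plaur, called members, inhibitors, plasminogen activation genes, genes of the pairs, the leading genes of each role list, and members over 1 on the log2 scale without overlap. Other members, such as Adam9, Adamts4, Adamts5, Adamts12 and the dim MMP genes of chromosome 9, were chosen after their values were seen. The members and lists were chosen with earlier results of these data known. Of the pairs, 1 was not analysed here. The alternatives tried are listed with their effect in the closing section.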

Additional observations from a re-analysis of the deposited data

How the results depend on the processing

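The numbers of members called were within 1.5 times of 3 higher and 3 lower with the mean of all probe sets, the probe set of largest variance, filters on the lowest 20% and 40% of genes, trend and robust eBayes, quantile normalisation, median centring and probe sets in place of genes (3 higher and 2 lower). Quantile normalisation and median centring had little room to move the counts, since RMA includes the first and array medians lay between 5.33 and 5.37. The choice by largest variance takes in the group difference itself. Leaving out each array in turn gave 0 to 3 members higher, 0 to 6 lower and 119 to 1650 genes called in all, against 886. Without both arrays numbered 1 there were 5, 9 and 3658, with an adjusted threshold of 0.01 there were 0, 0 and 128, and with treat against 2-fold 0, 0 and 51. An unadjusted p with a 2-fold limit called 3 members higher, 7 lower and 862 genes in all. The cause of these shifts was not tested, beyond the fewer arrays or stricter limits by construction.

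The replicate numbers were not taken as pairs, since same-numbered arrays did not deviate together (correlations −0.12, −0.22 and 0.08). With the replicate block, 2 members were higher (Timp1 and Timp3), 1 was lower (Mmp2) and 303 genes were called in all. Among the pathway neighbours, the replicate block ended the calls of S100a10 (limma adjusted p = 0.0696) and Adamtsl5 (0.0660) and added Serpinb2 (0.0335) and Ctsb (0.0405).

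No called member, no called neighbour gene and no pair changed direction in the alternatives run. For called genes and for pairs without overlap this was fixed where arrays were left out. The alternatives were followed gene by gene for the called genes and others named by rule, not for all members. Among the genes followed, the sign turned in 5 that were not called. Leaving out 1 array gave −0.187 to 0.0333 for Adam10, −0.68 to 0.14 for Plat, −0.065 to 0.105 for St14, −0.155 to 0.015 for Timp2 and −0.06 to 0.07 for Timp4. Without both arrays numbered 1, Adam10 had 0.105, Plat 0.225 and St14 −0.01. Timp4 stood at 0.0483 when its probe sets were averaged, 0.10 with the probe set of largest variance and 0.0067 with median centring. The cause was not tested. Ctsb was also called lower with the mean of all probe sets, the probe set of largest variance, both filters and trend and robust eBayes, and Bmp1 with the same settings but the last, and with quantile normalisation and median centring. Calls of Anxa2 and Adamtsl5 were lost with the mean of all probe sets, and 21 members were too dim in both groups for a change to be read.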

Other observations

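Probe sets that list a member among several genes stood outside the comparisons. There were 5, of which 4 were shared by Adam1a and Mapkapk5 and 1 by Adam6a and Adam6b, and limma called 0 of them. Their changes ranged from −0.21 to 0.09, with overlap between + dox and − dox arrays in each.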
